A study of Arabidopsis thaliana with 6 samples.

Results

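The genes described here are the 4 fermentation genes ADH1, PDC1, PDC2 and AT4G17260, chosen because their enzymes turn pyruvate into ethanol or lactate. They account for 4 of 22746 probe sets tested. Each is read by 1 probe set of the array: 264953_at for ADH1 (AT1G77120), 253416_at for PDC1 (AT4G33070), 248138_at for PDC2 (AT5G54960) and 245324_at for the lactate dehydrogenase AT4G17260. The first pair is named by the known identity of these probe sets, because the annotation used here lists neither. The other two were found by locus in that annotation. None of the 4 identifiers carries the suffix with which the array marks probe sets that match several sequences.

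RNA came from Arabidopsis thaliana plants of 2 genotypes, with 3 arrays each: 35S:PCO1, which carries plant cysteine oxidase 1 behind the 35S promoter of cauliflower mosaic virus, active in most tissues, and wild type. All plants of both genotypes had spent 4 h in the dark at 5% oxygen, starting in the morning, after growth in short days of 8 h light and 16 h darkness. Plants kept in air are not analysed here, and what hypoxia itself did to these genes is therefore outside these values. On tissue and age the labels conflict (rosettes or whole plants; 4 or 5 weeks). They do not say whether 35S:PCO1 is 1 line, whether plants were pooled, or whether replicates came from separate plants, so p-values reflect only how these samples vary, part of which may be technical. PCO1 itself is not analysed here.

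When oxygen is too scarce for respiration, plant cells keep glycolysis running by reoxidising NADH in fermentation. Pyruvate decarboxylase (PDC) releases carbon dioxide from pyruvate and leaves acetaldehyde, which alcohol dehydrogenase (ADH) reduces to ethanol. Lactate dehydrogenase (LDH) instead reduces pyruvate directly to lactate. ADH1 and PDC1 are classical targets of the group VII ethylene response factors, transcription factors whose stability falls when plant cysteine oxidases oxidise their N-terminal cysteine.

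Both ADH1 and PDC1 fell in 35S:PCO1, to 26.0% of the wild-type signal for ADH1 and 44.6% for PDC1. PDC2 and AT4G17260 had 80.6% and 79.8% of the wild-type signal and did not pass the test. A gene is said to have fallen where limma's adjusted p, Benjamini-Hochberg over all 22746 probe sets, was under 0.05. By this rule 2 of the 4 genes fell and none rose, where 0.193% of all probe sets fell and 0.0703% rose. The count behind that first share was 44 probe sets. It was 19 without 35S:PCO1 replicate 1, 19 without wild type replicate 1 and 25 without 35S:PCO1 replicate 3. In all 4 genes each 35S:PCO1 array lay below each wild-type array, which was so for 10.5% of all probe sets. RMA signals are given on the log2 scale, and signals of different probe sets are not comparable in level, so the genes are set against each other only by their changes.

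PDC1 encodes the enzyme of the first committed step of the ethanol branch and is the isoform known for its induction by low oxygen. Its signal was 4.038, 4.049 and 4.098 in 35S:PCO1 replicates 1, 2 and 3, against 5.077, 5.327 and 5.273 in the wild-type replicates. The 35S:PCO1 arrays were nearly level with each other, and the gap between the highest of them and the lowest wild-type array was 0.98. PDC1 averaged 4.06 ± 0.032 in 35S:PCO1 and 5.23 ± 0.13 in wild type (SD, n = 3 each). The log2 change was -1.16 (SE 0.075), and limma gave an adjusted p of 0.00034. The 35S:PCO1 signal was thus 44.6% of the wild-type signal, with a 95% confidence interval from 39.6% to 50.2%, or 2.24-fold lower. The gene was dim in 35S:PCO1, at percentile 20.6 of the probe sets tested, against percentile 41.1 in wild type. Lowest values of the arrays lay between 2.73 and 2.81. RMA compresses differences near this end, so the fold may understate the difference.

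PDC2 encodes the second isoform of the same enzyme. Its signal was 8.40, 8.58 and 8.49 in 35S:PCO1 replicates 1, 2 and 3, against 8.81, 8.88 and 8.72 in wild type. The groups did not overlap, but only 0.14 separated the highest 35S:PCO1 array from the lowest wild-type array. Means were 8.49 ± 0.090 in 35S:PCO1 and 8.80 ± 0.077 in wild type (SD, n = 3 each). The log2 change was -0.31 (SE 0.071), with an unadjusted p of 0.0019 and an adjusted p of 0.19 by limma. In linear terms 35S:PCO1 had 80.6% of the wild-type signal (95% confidence interval 72.1% to 90.1%). Its level was at percentile 86.1 in 35S:PCO1 and 88.7 in wild type. With arrays weighted by their quality, the log2 change was -0.35 and passed limma's threshold (adjusted p = 0.037). That setting called 177 of all probe sets lower, against 44 in the reported fit. The adjusted p by limma over all alternatives ranged from 0.037 to 0.71.

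ADH1 encodes the enzyme that makes ethanol, the last step of this branch. It had the largest change of the 4 genes and ranked 7th among all probe sets when ordered from the most negative change. Signals were 7.39, 7.42 and 7.71 in 35S:PCO1 replicates 1, 2 and 3, against 9.39, 9.76 and 9.18 in wild type. The lowest wild-type array lay 1.48 above the highest 35S:PCO1 array. ADH1 averaged 7.50 ± 0.18 in 35S:PCO1 and 9.45 ± 0.29 in wild type (SD, n = 3 each). The log2 change was -1.94 (SE 0.14), with an adjusted p of 0.00064 by limma. This leaves 26.0% of the wild-type signal in 35S:PCO1 (95% confidence interval 20.8% to 32.6%), 3.84-fold lower. ADH1 stayed well within the range of the array in both genotypes, at percentile 73.9 in 35S:PCO1 and 93.2 in wild type.

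AT4G17260 encodes the lactate dehydrogenase of the other branch. Its signal was 6.96, 6.85 and 6.69 in 35S:PCO1 replicates 1, 2 and 3, against 7.20, 7.07 and 7.20 in wild type. No array of 35S:PCO1 reached the wild-type range, although the gap was only 0.12. The gene averaged 6.83 ± 0.13 in 35S:PCO1 and 7.16 ± 0.072 in wild type (SD, n = 3 each). Its log2 change of -0.33 (SE 0.080) had an unadjusted p of 0.0029 and an adjusted p of 0.22 by limma. The 35S:PCO1 signal was 79.8% of the wild-type signal (95% confidence interval 70.3% to 90.4%). Its level was at percentile 63.7 in 35S:PCO1 and 68.1 in wild type.

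**Figure D1:**
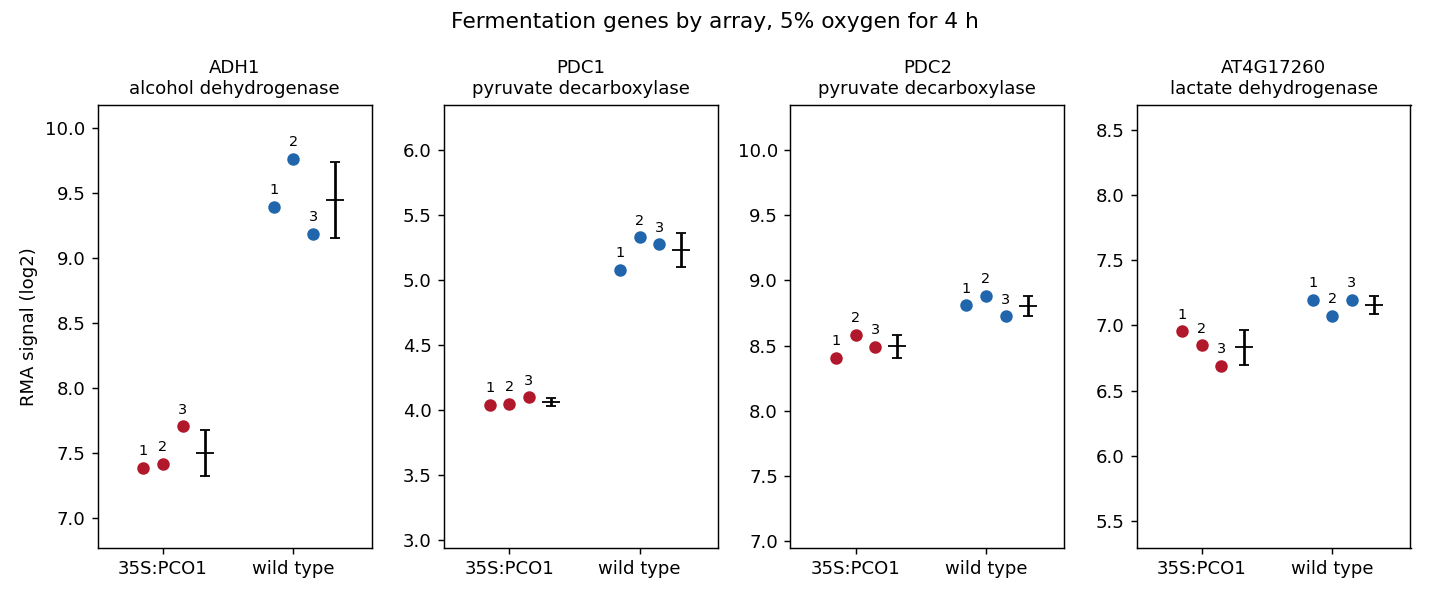
RMA signal (log2) of ADH1, PDC1, PDC2 and AT4G17260 on each array, with 35S:PCO1 in red and wild type in blue; numbers are replicates, bars show mean ± SD (n = 3), and the panels span equal log2 ranges. ADH1 and PDC1 are separated by gaps of 1.48 and 0.98, PDC2 and AT4G17260 by 0.14 and 0.12.

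The changes of the 4 genes differed in size, from -1.94 for ADH1 to -0.31 for PDC2. Each pair of genes was compared by the difference of their log2 signals within an array, which cancels whatever is common to the array, and this difference was compared between genotypes over 6 pairs. The exact two-sided permutation test cannot give a p under 0.1 with 3 against 3 arrays, so none of these comparisons could pass a threshold of 0.05. The change of ADH1 minus that of PDC1 was -0.78: the within-array difference was 3.44 ± 0.14 in 35S:PCO1 and 4.22 ± 0.28 in wild type (SD, n = 3 each; SE of the change 0.18). Taken over the 9 possible pairs of a 35S:PCO1 and a wild-type array, this change ran from -1.09 to -0.30, and the groups did not overlap (exact permutation p = 0.1, 0.12 after adjustment over the 6 pairs). PDC1 was dim in 35S:PCO1, with its mean of 4.06 below the lower quartile of 4.26 in that genotype, and its change may be understated there. The differences that involve PDC1 carry the same limit, so the gap between ADH1 and PDC1 may be smaller and those between PDC1 and the other genes larger than given.

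Between the decarboxylase isoforms, the change of PDC1 minus that of PDC2 was -0.85 (SE 0.097). Its range over the 9 array pairs was -1.08 to -0.64. The change of PDC1 minus that of AT4G17260 was -0.84 (SE 0.14), and the change of ADH1 minus that of AT4G17260 was -1.62 (SE 0.27). For ADH1 minus PDC2 it was -1.63 (SE 0.17). For these 4 pairs as well the groups did not overlap, and each had an exact permutation p of 0.1, adjusted to 0.12. PDC2 and AT4G17260 were the exception. Their changes differed by 0.015 (SE 0.14), with a range of -0.36 to 0.27 over the 9 array pairs, overlapping groups and an exact permutation p of 1. That range leaves room for unequal changes of up to about the size of either change itself.

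**Figure D2:**
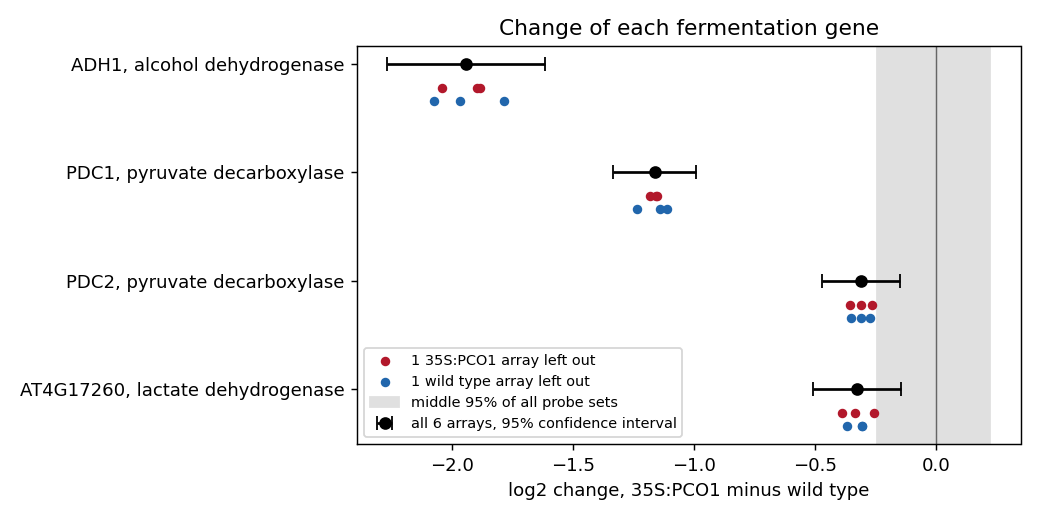
Change of each gene (log2, 35S:PCO1 minus wild type), with limma's 95% confidence interval (black), the change with 1 array left out (coloured points) and the middle 95% of changes over all probe sets (grey, -0.24 to 0.22). ADH1 at -1.94 and PDC1 at -1.16 lie far outside the grey band. PDC2 at -0.31 and AT4G17260 at -0.33 lie just outside it, and their intervals reach into it.

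The spread within a genotype differed between the genes. Wild type replicate 2 had the highest signal of its group for ADH1 (0.32 above the group mean), PDC1 (0.10 above) and PDC2 (0.076 above), and the lowest for AT4G17260 (a deviation of -0.083). Among the 35S:PCO1 arrays, replicate 3 was highest for ADH1, 0.20 above the group mean, and lowest for AT4G17260, with a deviation of -0.14. The lactate dehydrogenase thus stood at the opposite end of the group to ADH1 on both arrays. This was seen after the fact in groups of 3 arrays and was not tested. The array of wild type replicate 2 also had the highest values in 2 of 3 RNA controls: the 3 prime probe set of GAPDH exceeded its 5 prime probe set, in log2 signal, by 0.42 to 0.44 in 35S:PCO1, against 0.81 on that array and 0.29 and 0.27 on the other wild-type arrays. For actin this excess was 1.37 to 1.47 in 35S:PCO1, against 1.78 on that array and 1.42 and 1.52 on the others. For ubiquitin it was 0.94 to 1.00 in 35S:PCO1, against 0.98 on that array, 0.97 on wild type replicate 3 and 1.10 on replicate 1, which was the highest. Without wild type replicate 2 the log2 changes were -1.78 for ADH1, -1.11 for PDC1, -0.27 for PDC2 and -0.37 for AT4G17260, with the calls as before.

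Leaf and root markers were set beside these changes, since alcohol dehydrogenase is typically more abundant in roots than in leaves. In bulk tissue, fewer cells of a type and less RNA per cell cannot be told apart. The 4 leaf markers listed in the annotation, of 8 sought, were among the brightest probe sets. LHCB4.1, a photosystem II antenna protein, averaged 13.3 in 35S:PCO1 and 13.3 in wild type, and RCA, the activase of Rubisco, 13.2 and 13.1. Of 10 root markers 5 were listed, led by PYK10, a root beta-glucosidase, at 6.89 ± 0.048 in 35S:PCO1 and 7.07 ± 0.20 in wild type, and EXPA7, a root-hair expansin, at 5.72 ± 0.058 and 5.82 ± 0.17 (SD, n = 3 each). The mean of the 5 root markers ranged from 5.00 to 5.05 over the 35S:PCO1 arrays and from 5.08 to 5.12 over the wild-type arrays (exact permutation p = 0.1, the smallest possible). Their median log2 change was -0.084, with 3 changes negative and 2 positive. The positive ones were PRX44 at 0.010 and PRX57 at 0.036. These 2 were dim, at 4.07 and 3.51 in 35S:PCO1 and 4.06 and 3.48 in wild type, where RMA compresses differences. The dimmest with a negative change was EXPA18 at -0.084, with 4.96 in 35S:PCO1 and 5.04 in wild type. For the 4 leaf markers the median was -0.0087, with 2 changes negative and 2 positive, from -0.10 to 0.13. None of these 9 markers passed limma's test, where 0.193% of all probe sets fell and 0.0703% rose. None had an unadjusted p under 0.05, against 10.4% of all probe sets, a share that leaves few or none among 9. The part of root tissue in the result was not tested. The 3 flower and 3 seed markers sought are not analysed here.

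In the rest of the pathway, read from lists of loci, no matched member was called. Genes without a matched probe set were not read. Over all probe sets 0.193% were called lower and 0.0703% higher, so lists this short would seldom hold a call. Of 15 other genes of fermentation and acetaldehyde or lactate use, 10 could be matched to a probe set. Their median log2 change was 0.024, against -0.012 for all probe sets, with a range of -0.097 to 0.21 and 6 of 10 above 0. By limma 1 of the 10 had an unadjusted p under 0.05, as had 10.4% of all probe sets. This was the ADH-like gene AT1G32780, at 4.93 ± 0.062 in 35S:PCO1 and 4.72 ± 0.12 in wild type (SD, n = 3 each), a log2 change of 0.21 (SE 0.076, adjusted p = 0.40). Its groups did not overlap, as was so in this direction for 5.68% of all probe sets. Another 2 ADH-like genes, AT5G42250 and AT1G64710, had log2 changes of 0.15 (SE 0.091) and -0.097 (SE 0.12). ACS, acetyl-CoA synthetase, which takes up the acetate made from acetaldehyde, was at -0.071 (SE 0.067). The D-lactate dehydrogenase AT5G06580, which oxidises the D form of lactate, was at -0.026 (SE 0.057). PDC3 and PDC4 are not analysed here.

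Among 16 genes of other uses of pyruvate, 5 were matched, 4 of them subunits of the pyruvate dehydrogenase complex, which feeds pyruvate to respiration. Their median log2 change was -0.036, and none was called by limma, while 1 had an unadjusted p under 0.05, as had 10.4% of all probe sets. That gene was MAB1, the beta subunit of the first enzyme of the mitochondrial complex. It had 10.3 ± 0.0074 in 35S:PCO1 and 10.4 ± 0.013 in wild type (SD, n = 3 each). The log2 change was -0.19 (SE 0.054, adjusted p = 0.30), and the groups did not overlap, as was so in this direction for 10.5% of all probe sets. The dihydrolipoamide acetyltransferase subunits LTA3 and AT3G13930 lay on either side of 0, at -0.10 (SE 0.080) and 0.066 (SE 0.067).

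Glycolysis, which supplies the pyruvate, was covered by 14 of 51 genes. Their changes ranged from -0.10 to 0.13 around a median of 0.0076, and 8 were positive. By limma none was called or had an unadjusted p under 0.05. Of all probe sets, 0.193% were called lower, 0.0703% were called higher and 10.4% had such an unadjusted p. AT1G12000, a subunit of the pyrophosphate-dependent phosphofructokinase, had the largest change in size, 0.13 (SE 0.12, adjusted p = 0.77). GAPC2, a cytosolic glyceraldehyde-3-phosphate dehydrogenase, was bright at 11.64 ± 0.035 in 35S:PCO1 and 11.62 ± 0.029 in wild type (SD, n = 3 each). The pyruvate kinase genes AT5G63680 and AT4G26390 were at -0.10 (SE 0.11) and -0.086 (SE 0.090). Since 37 of the 51 genes could not be matched, these values do not cover the pathway as a whole.

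**Figure D3:**
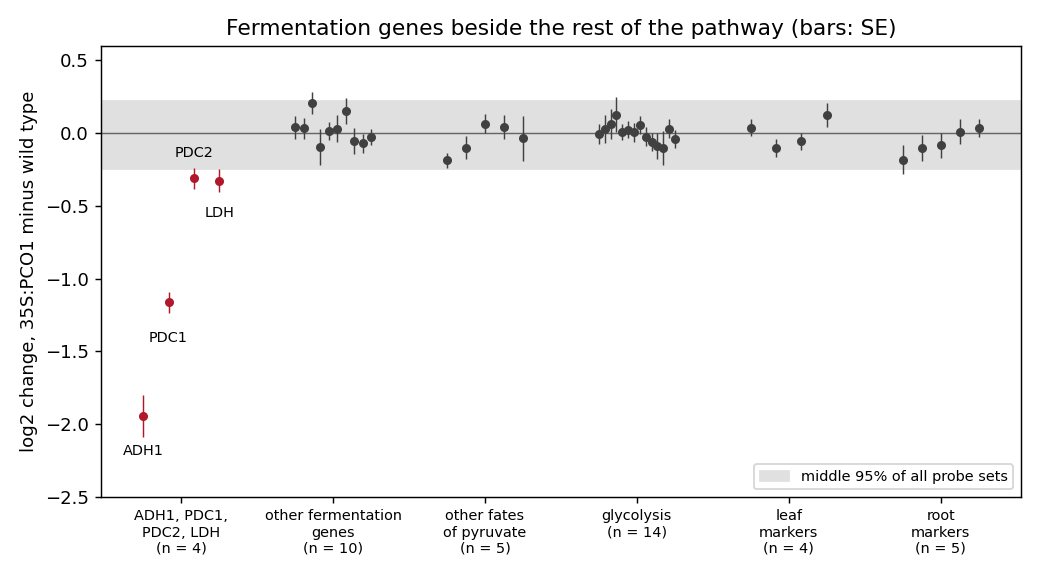
Changes (log2, 35S:PCO1 minus wild type, with SE bars) of ADH1, PDC1, PDC2 and the lactate dehydrogenase (red), and of the matched genes of the pathway lists and the leaf and root markers (grey points). The matched genes of the lists lie between -0.19 and 0.21, inside the band that holds the middle 95% of all probe sets.

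The profiles closest to each gene over the 6 arrays were taken from probe sets that name 1 gene and vary between 0.5 and 2 times as much as the gene. Distance was the root mean square difference of the mean-centred log2 signals. For ADH1, 54 probe sets qualified, and the closest were AT2G17850 of the rhodanese family at a distance of 0.22, AT4G22490 of the lipid-transfer superfamily at 0.25 and AT1G19530 at 0.25. Their log2 changes were -1.81, -1.59 and -2.08. All 3 were highest on wild type replicate 2 and, among the wild-type arrays, lowest on replicate 3, as ADH1 was. For PDC1, with 379 candidates, the closest were AT5G01870 of the lipid-transfer superfamily at 0.14, CML38, a calmodulin-like protein, at 0.14 and AT3G27220 of the Kelch-repeat family at 0.15. They had log2 changes of -1.17, -1.29 and -1.40.

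PDC2 and AT4G17260 had far more candidates, 7202 and 6496, so that small distances are reached more easily. The closest to PDC2 were AT5G37070 at 0.033, AT1G50740 at 0.037 and AT3G19030 at 0.041, with log2 changes of -0.32, -0.27 and -0.24. Closest to the lactate dehydrogenase were AT5G40710 at 0.048, AT1G75960 at 0.053 and AT1G30940 at 0.056, with log2 changes of -0.27, -0.31 and -0.28. The probe set of AT1G30940 is of the kind that can match several sequences. All 12 genes were chosen for their likeness over these arrays, so their own changes are a description and support nothing further. Among the fermentation genes themselves, PDC2 and AT4G17260 were closest to each other, at 0.14, and ADH1 and AT4G17260 farthest apart, at 0.85.

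**Figure D4:**
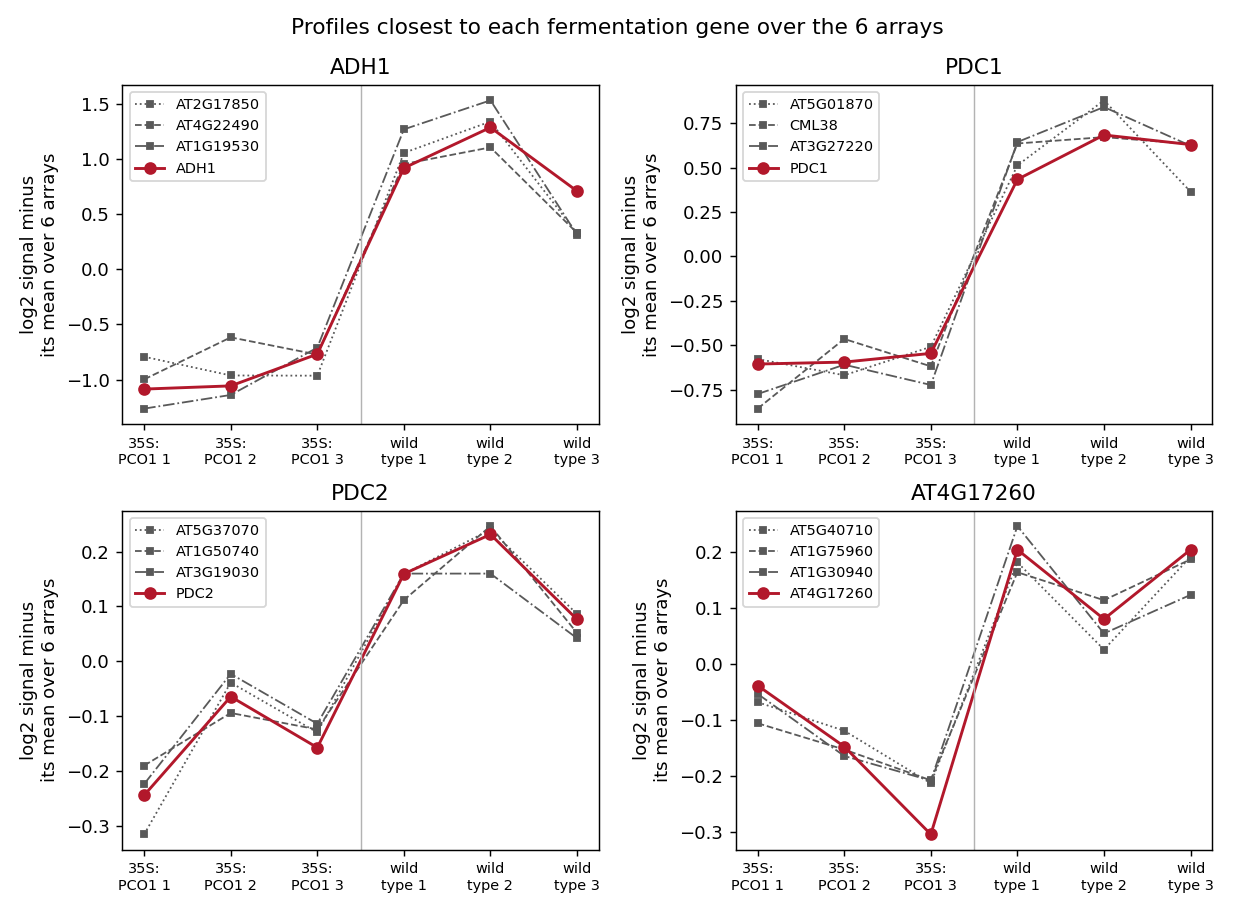
Log2 signal minus its mean over the 6 arrays for each fermentation gene (red) and the 3 genes closest to it (grey), with 35S:PCO1 arrays left of the line and wild-type arrays right of it; the vertical scales differ between panels. Every profile is lower on the 35S:PCO1 arrays, with log2 changes of -1.94 for ADH1 and -0.31 for PDC2.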

How the data were processed

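Total RNA was hybridised to Affymetrix Arabidopsis Genome GeneChip arrays, 1 per sample, per the labels' protocols. The deposited values are log2 signals per probe set that the authors made with RMA, per the submitters' processing notes; its version is not given in the sources used here. This method subtracts background, brings the probes of all arrays to 1 distribution and then summarises them, and so largely removes a shift shared by a whole array. Medians of the arrays over the probe sets still ran from 5.86 to 5.91. Of 22810 probe sets 64 controls were left out. No detection calls were used. Precision is limited by the number of arrays.

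Groups and replicate numbers came from sample titles. 35S:PCO1 was compared with wild type with limma 3.58.1 (lmFit, eBayes; R 4.3.3) and no covariates, over 22746 probe sets with Benjamini-Hochberg adjustment. Single values were compared by exact permutation tests in scipy 1.17.1. Names came from the platform annotation, updated through the TAIR10.1 gene table: 13513 probe sets name 1 gene, 503 several, and 8730 are unlisted. No coordinates are printed, since no build is named for the probe sets. Where a listed gene had several probe sets, the brightest on average was to be read, but each matched gene had 1.

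The genes described and the lists were chosen with earlier results of these data known. The text names the 4 fermentation genes, called members of the pathway lists or otherwise the 3 members of a list with the largest change, the 2 brightest markers of leaf and root, and the 3 closest profiles of each fermentation gene; a few further list members were named for their role after their values were seen. Alternatives were the replicate block, median centring, a second quantile normalization, trend and robust options in eBayes, and array weights. Others were a filter on dim probe sets, other thresholds, averaging a gene's probe sets, and each array left out. Counting any probe set of a gene was added later. Each matched list gene had 1 probe set, so averaging or counting probe sets could not change the results of the lists. The fit was tested on simulated data.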

Additional observations from a re-analysis of the deposited data

How the results depend on the processing

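The calls of ADH1 and PDC1 held in every alternative run, with log2 changes from -2.07 to -1.78 and from -1.24 to -1.10; PDC1 was too dim for the filter at the 40th percentile. PDC2 passed only with array weights (-0.35, adjusted p = 0.037), and AT4G17260 in none (-0.39 to -0.26). The share of probe sets called depended most on the setting. Of all probe sets, 60 were called (16 higher, 44 lower) in the reported fit. This became 255 (78 and 177) with array weights, 26 (5 and 21) with the replicate block and 28 (6 and 22) at an adjusted p under 0.01. With 1 array left out, the counts ranged from 23 to 60, from 4 to 14 higher and from 19 to 46 lower; the total was 24 without 35S:PCO1 replicate 1, 33 without 35S:PCO1 replicate 3 and 23 without wild type replicate 1. The causes were not tested. The difference between the changes of PDC2 and AT4G17260 had no stable sign, from -0.054 to 0.12 with 1 array left out; the other pairs kept theirs. The labels name no pairing, so the replicate numbers were not taken to pair the samples. Deviations from the group means had correlations of -0.059, -0.22 and -0.26 between same-numbered arrays. Between differently numbered arrays they ran from -0.036 to 0.23. With 3 arrays per group these correlations depend on each other and cannot exclude a pairing. With the replicate block ADH1 had an adjusted p of 0.027 and PDC1 of 0.011. Some uncalled changes near 0 turned sign: AT5G06580 to 0.0088 after a second quantile normalization, and with 1 array left out AT1G64710 ranged from -0.20 to 0.034 and AT5G63680 from -0.21 to 0.022. No matched member of the pathway lists was called under any alternative.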
